A study of Homo sapiens with 6 samples.

Results

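The AP-1 and EGR immediate early factors belong to transcription factor families in which several genes are switched on within minutes of a growth or stress signal. Not all members follow that course, since FOSL1 comes later and JUND is present in resting cells. The members here are the FOS proteins FOS, FOSB, FOSL1 and FOSL2 and the JUN proteins JUN, JUNB and JUND. The others are the stress factor ATF3 and the zinc finger factors EGR1 and EGR3. These 10 genes are 10 of the 19775 genes that the array's annotation names, and all of their 24 probe sets that carry 1 member's symbol and no other were taken, of 41091 probe sets with 1 symbol. The members were chosen on their measured values in these same 6 arrays, namely their POSTN differences and their levels by replicate number, so both are given below as a description and not as a test. The samples were MHCC97H cells, a human hepatocellular carcinoma (HCC) line, and the cells studied were the residual cells left after heating at 47 °C, a model of tumor cells that survive incomplete ablation. The control cells received 0 ng/mL and the POSTN cells 100 ng/mL of periostin (POSTN), an extracellular matrix protein secreted by activated hepatic stellate cells, for 24 h, and all cells of both conditions were heated. Each condition had 3 arrays, numbered 1, 2 and 3 in the labels, and RNA was measured on an Affymetrix U133 Plus 2.0 array with a signal per probe set. The labels do not say what a number stands for or whether the samples came from separate cultures, so the spread between them may be technical, and the results rest on a single cell line.

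AP-1 is a pair of basic leucine zipper proteins, a JUN protein bound to another JUN, to a FOS protein or to an ATF protein such as ATF3, and the pair binds the TPA response element (TRE, TGACTCA) or the cyclic AMP response element (CRE, TGACGTCA). FOS proteins do not pair with each other, whereas JUN can. EGR1 and EGR3 bind a GC-rich site (GCGTGGGCG) on their own. FOS and EGR1 are textbook targets of the ERK pathway, in which ELK factors and serum response factor (SRF) bind CArG boxes near the gene's start, and FOSL1 is a later target of the same pathway that accumulates during sustained signaling. In the liver, AP-1 is known for its part in regeneration after injury and in tumor formation. The question of the experiment was which genes POSTN alters in the heated cells, and POSTN is known to signal through integrins to ERK, upstream of these factors.

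The promoter sequences of EGR1 and FOS are shown because the results below turn on these genes, and that of JUN because JUN is the central partner of AP-1 and its promoter holds an AP-1 site. They come from RefSeq on GRCh38.p14 and end at the base before the gene's annotated start, and 8 of the 10 members had a promoter window of 250 bases before to 50 bases after the start. Capitals mark, on either strand, a CArG box or a CRE core (TGACG, which a full CRE also holds) in EGR1 and FOS, and the AP-1 site TGACATCA in JUN. 
EGR1, chr5:138465329-138465478, plus strand: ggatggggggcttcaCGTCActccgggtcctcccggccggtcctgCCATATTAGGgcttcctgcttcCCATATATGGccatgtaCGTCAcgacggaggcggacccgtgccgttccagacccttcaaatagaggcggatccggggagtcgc
FOS, chr14:75278728-75278827, plus strand: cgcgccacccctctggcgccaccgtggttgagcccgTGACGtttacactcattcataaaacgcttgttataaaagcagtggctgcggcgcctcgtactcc
JUN, chr1:58784048-58784147, minus strand: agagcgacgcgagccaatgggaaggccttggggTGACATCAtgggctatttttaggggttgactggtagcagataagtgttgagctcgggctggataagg
The EGR1 promoter held 2 CArG boxes, which start 105 and 83 bases before the gene, and it is 1 of 11 windows with 2 or more among 35116 windows of all genes (0.0313%), while 1.29% held at least 1. No other member's window held a CArG box, which says only that these letters are not in those windows. A CRE core was in 24.6% of all windows and in those of EGR1, FOS, FOSB, FOSL2, JUN, JUNB and JUND. The site TGACATCA was in 2.61% of all windows and in those of JUN and ATF3, a TRE was in 4.95% and in that of FOSL2, and a full CRE was in 1.85% and in that of JUND. An EGR site was in 0.794% of all windows and in none of the members'. These matches are letters in a sequence and do not show that a factor was bound.

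Most members were detected in the heated cells. The background level was set at a log2 signal of 5.98, the 95th percentile of the mean log2 signals of 107 probe sets for olfactory receptors, which are not expected in liver cells, and 46.4% of the 54613 probe sets tested lay above it. Of the 24 probe sets of the members, 18 lay above it, and 8 of the 10 genes had at least 1 such probe set. FOSB and EGR3, each with 1 probe set, were within the background range in both conditions, and 3 of the 4 probe sets of JUND had a mean over the 6 arrays under that level. The third probe set of ATF3, 1554420_at, lay just at the level, with a mean log2 signal of 5.97. Signals of different probe sets are not compared with each other here, because each probe set has its own brightness. In bulk RNA, fewer cells that express a gene and less RNA per cell cannot be told apart.

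The arrays were alike in their overall values, with a median log2 signal between 5.80 and 5.95 and between 47.7% and 49.7% of probe sets above the background level. The arrays numbered 1, however, stood apart from the 4 others in both conditions, with 3069 probe sets called at an adjusted p under 0.05 (1589 higher and 1480 lower in number 1; limma with Benjamini-Hochberg adjustment over all probe sets). The count was 718 without control replicate 1, 657 without POSTN replicate 1, 1869 without POSTN replicate 3 and 0 with a prior variance that does not follow the signal (9435 and 6261 probe sets had an unadjusted p under 0.05 with and without that trend). Hepatocyte lineage markers were detected (8 of 11, among them AFP, ALB, APOB and TTR), whereas GPC3, APOA1 and SERPINA1 were not above background. Of the markers of other cell types, PTPRC, CD14, CDH5 and VWF were within the background range, while 3 of 6 stellate cell or fibroblast genes (COL1A1, DCN and LUM), 2 of 4 endothelial genes (PECAM1 and KDR) and 1 of 3 leukocyte genes (CD3E) were above it. The summed signal of the endothelial list was 1411 to 1667 on the arrays numbered 1 against 1007 to 1269 on the others, and that of the stellate list 2900 to 3330 against 3346 to 3706, and their part in the differences by number was not tested.

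The levels of FOS and EGR1 separated by replicate number and overlapped between the conditions. FOS, the founding partner of JUN in AP-1 (chromosome 14, 75278828 to 75282230), had log2 signals of 9.21, 7.41 and 7.70 in control cells 1, 2 and 3, and of 9.11, 7.87 and 7.39 in POSTN cells 1, 2 and 3. The array numbered 1 was the highest in each condition, and the conditions overlapped throughout. The mean was 8.11 ± 0.96 in control and 8.12 ± 0.89 in POSTN cells (SD, n = 3), and the POSTN difference was 0.016 on the log2 scale (standard error 0.50, 95% confidence interval -1.11 to 1.14). That fit leaves the spread between numbers in its error. Once the number entered the fit as a block, the same difference of 0.016 had a standard error of 0.18 and an interval of -0.38 to 0.41. EGR1, a growth and stress factor (chromosome 5, 138465479 to 138469303), gave 10.56, 9.15 and 9.30 in control and 10.39, 9.50 and 9.34 in POSTN cells on its brightest probe set, 201694_s_at, again with number 1 highest in each condition. Its POSTN difference was 0.075 (standard error 0.37, interval -0.74 to 0.89, and with the block 0.11 and -0.17 to 0.32). The second probe set of EGR1, 227404_s_at, read 9.59, 7.89 and 7.98 in control and 9.58, 7.65 and 8.35 in POSTN cells. The dimmer 201693_s_at read 7.36, 6.78 and 6.67, and 7.75, 7.15 and 6.70. All 3 probe sets of EGR1 thus had both arrays numbered 1 above the 4 others.

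**Figure D1:**
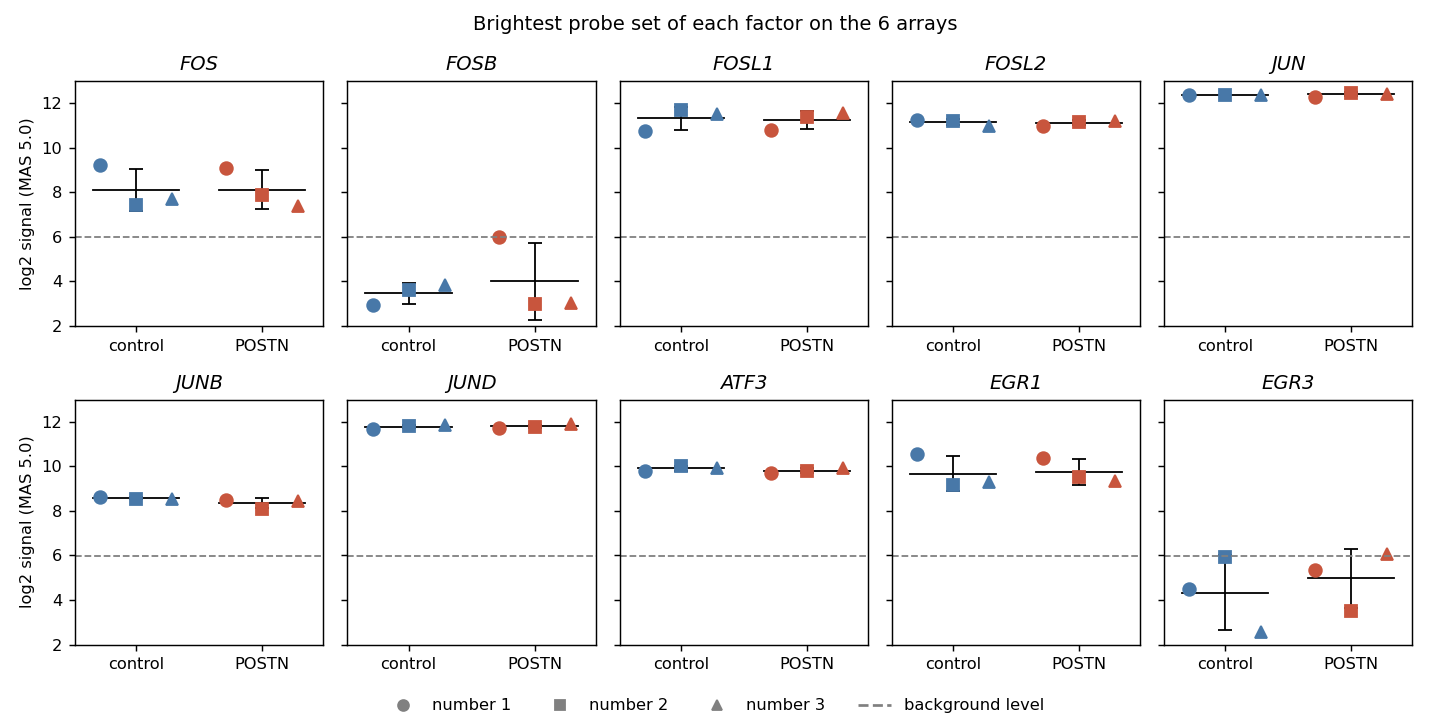
Log2 signal of the brightest probe set of each member on each of the 6 arrays, by condition (colour) and replicate number (symbol), with the mean and SD of each condition and the background level of 5.98 as a dashed line. FOS and EGR1 were highest and FOSL1 was lowest on the arrays numbered 1 of both conditions, and FOSB and EGR3 lay around or under the background level.

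FOSL1 had the opposite order. FOSL1, also known as FRA-1 (chromosome 11, 65892049 to 65900545), is a FOS protein without the strong activation domain of FOS and is linked to migration and invasion of carcinoma cells. Its log2 signals were 10.75, 11.68 and 11.52 in control and 10.78, 11.39 and 11.58 in POSTN cells, so that both arrays numbered 1 were below the 4 others. With POSTN it differed from control by -0.070 (standard error 0.25, interval -0.63 to 0.49, and with the block 0.079 and -0.24 to 0.10). FOSL2, or FRA-2 (chromosome 2, 28392858 to 28417317), read 11.24, 11.19 and 10.99 in control and 10.99, 11.17 and 11.20 in POSTN cells on its brightest probe set, 225262_at, with a POSTN difference of -0.021 (standard error 0.11, interval -0.26 to 0.21). Here no array stood apart. The 5 probe sets of FOSL2, all above background, did not share 1 order, since 228188_at read 11.11, 10.64 and 10.55 in control and 11.01, 10.40 and 10.58 in POSTN cells, highest in number 1, whereas 218880_at read 9.54, 9.50 and 10.13 and 9.53, 9.75 and 10.06, highest in number 3. FOSB (chromosome 19, 45467996 to 45475179) read between 2.96 and 3.86 in control cells and 5.99, 2.99 and 3.04 in POSTN cells. Only POSTN 1 of its 6 values reached the background level, so its level stayed within the background.

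The JUN proteins were level in comparison. JUN, the central partner of AP-1 and a target of the JNK kinases (chromosome 1, 58780791 to 58784047), read 12.39, 12.38 and 12.36 in control and 12.30, 12.48 and 12.43 in POSTN cells on 201464_x_at, with no array apart from the rest. Its POSTN difference was 0.026 (standard error 0.083, interval -0.16 to 0.21). Of its other 3 probe sets, 213281_at read 8.73, 9.12 and 8.97 in control and 9.32, 9.11 and 9.38 in POSTN cells, with the conditions overlapping at number 2, and its difference of 0.33 (standard error 0.15) was the highest among the members' probe sets above background. The interval of that difference, -0.0034 to 0.67, reached 0, that with the block, 0.045 to 0.62, did not (adjusted p = 0.97 over all probe sets, limma), and the other JUN probe sets gave differences from -0.059 to 0.026. The probe set 201465_s_at, in turn, read 8.95, 8.30 and 8.66 in control and 8.91, 8.43 and 8.40 in POSTN cells, with number 1 highest in each. Probe sets whose names end in _x_at or _s_at may also bind transcripts of related genes.

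JUNB, a JUN protein that often restrains JUN (chromosome 19, 12791486 to 12793315), read 8.61, 8.54 and 8.54 in control and 8.50, 8.11 and 8.46 in POSTN cells. Every control array was above every POSTN array, though control 3 at 8.54 and POSTN 1 at 8.50 were close. The difference was -0.21 (standard error 0.17, interval -0.58 to 0.16). JUNB was the only one of the 18 probe sets above background whose conditions did not overlap, where 5.64% of all 25320 probe sets above background did the same. JUND, which is present in resting cells (chromosome 19, 18279694 to 18281622), read 11.70, 11.80 and 11.87 in control and 11.73, 11.78 and 11.89 in POSTN cells on 203752_s_at, a difference of 0.010 (standard error 0.090, interval -0.19 to 0.21). Its dim probe set 229117_s_at read 3.24, 3.0 and 3.21 in control and 6.14, 5.49 and 5.43 in POSTN cells, with a difference of 2.54 (standard error 0.68, interval 1.03 to 4.04). Both condition means of this probe set, 3.15 and 5.69, were within the background range, where log2 signals of dim probe sets vary widely. Its own SD was 0.13 in control and 0.40 in POSTN cells. The difference was 0.79 on the log2(signal + 50) scale, and what lies behind it was not tested. The other dim JUND probe sets were also higher with POSTN, with the conditions overlapping. The difference was 0.88 on 203751_x_at (interval -0.37 to 2.14), whose mean was 5.36 in control and 6.24 in POSTN cells. It was 1.08 on 214326_x_at (interval -0.45 to 2.61). The bright probe set of the same gene showed no such difference.

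ATF3, a member of the CREB/ATF family that pairs with JUN proteins and is induced by heat, amino acid shortage and other stress (chromosome 1, 212565407 to 212620777), read 9.77, 9.99 and 9.95 in control and 9.69, 9.79 and 9.94 in POSTN cells on 202672_s_at. The POSTN difference was -0.097 (standard error 0.12, interval -0.37 to 0.17), and the second probe set, 1554980_a_at, gave 0.11 (standard error 0.16). EGR3, a relative of EGR1 (chromosome 8, 22687659 to 22693480), scattered between 2.57 and 6.06 on all 6 arrays, so its difference of 0.63 had a standard error of 0.99.

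With POSTN, no probe set of any member passed the test, and neither did any other probe set on the array. None of the 24 was called at an adjusted p under 0.05 (lowest adjusted p = 1.0, limma), where 0.0% of all 54613 probe sets were called. The lowest adjusted p of any probe set was 1.0 with limma, 0.60 with the methods' t-test, and 1649 probe sets had an unadjusted p under 0.05 in limma. At the study's thresholds, an unadjusted p under 0.05 with a fold change over 2 or under 0.5, 1 of the 24 was counted, the dim JUND probe set 229117_s_at, where 2.56% of all probe sets were counted, and nothing was read from it. Among the 18 probe sets above background, 9 were higher and 9 were lower with POSTN, from -0.33 to 0.33 with a median of -0.00092 on the log2 scale, next to a median of -0.0078 over the 11550 genes above background. The standard errors of these 18 ranged from 0.083 to 0.52. FOS and EGR1, which spread by number within each condition, had wide intervals in this fit without the block, while those of the brightest probe sets of JUN and JUND reached from -0.19 to 0.21 at the widest. When the number was added as a block, the members' lowest adjusted p was 0.97. The cells were measured only after 24 h of POSTN, so an earlier and passing change in these factors would not be seen.

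**Figure D2:**
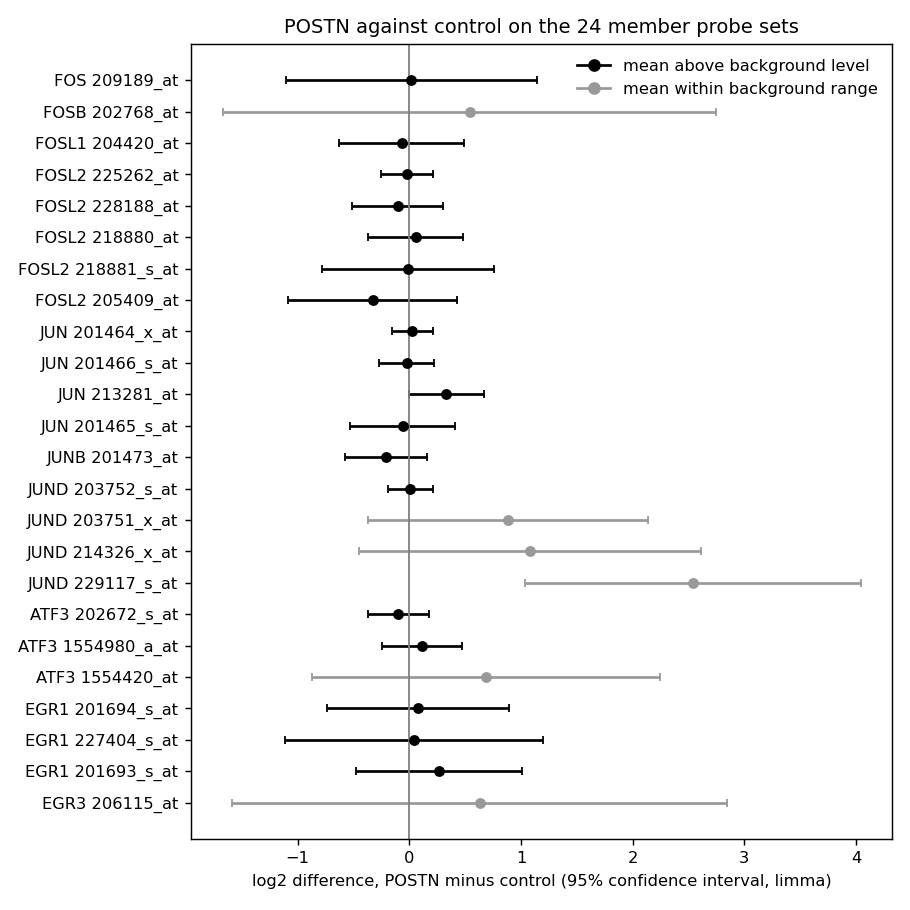
POSTN minus control difference in log2 signal (horizontal axis) for each of the 24 probe sets of the members, with the 95% confidence interval from limma (3 arrays a condition), in black where the mean was above the background level and in grey where it was within it. The intervals, from the fit without the replicate block, include 0 for all 18 black points, and the 1 interval that does not is that of the grey JUND probe set 229117_s_at (1.03 to 4.04).

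Read by number, FOS and EGR1 were higher and FOSL1 was lower in the arrays numbered 1 of both conditions. FOS was 1.56 higher on the log2 scale than in numbers 2 and 3 (standard error 0.19, 2.96-fold), by 1.65 within control and by 1.48 within POSTN cells. EGR1 was 1.15 higher on 201694_s_at (standard error 0.11, 2.23-fold; 1.34 within control and 0.97 within POSTN cells), 1.62 higher on 227404_s_at (3.06-fold) and 0.73 higher on 201693_s_at (1.66-fold). FOSL1 differed by -0.77 (standard error 0.083, 1.71-fold lower), at -0.85 within control and -0.70 within POSTN cells. These are descriptions of the same 6 arrays in which FOS differed by 0.016 and FOSL1 by -0.070 with POSTN. FOSL2 was 0.52 higher on 228188_at but differed by -0.022 on its brightest probe set and by -0.32 on 218880_at, so its probe sets disagreed. JUN was 0.49 higher on 201465_s_at, and its brightest probe set differed by -0.067. JUND (-0.12) and ATF3 (-0.19) had both arrays numbered 1 below the other 4 by small steps, and JUNB differed by 0.15 with the numbers overlapping.

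**Figure D3:**
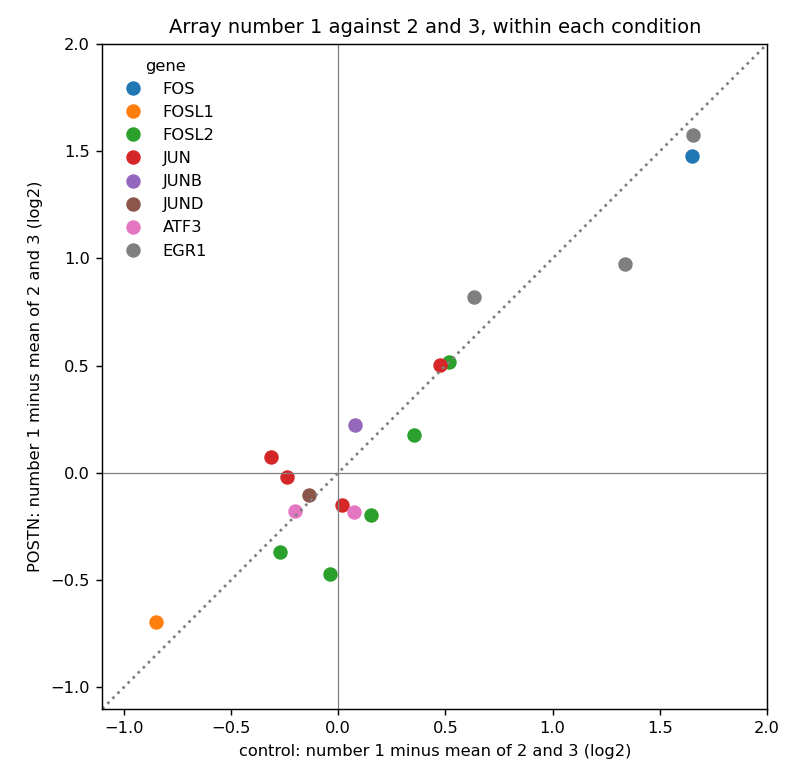
Difference in log2 signal between the array numbered 1 and the mean of numbers 2 and 3, within control (horizontal axis) and within POSTN cells (vertical axis), for the 18 probe sets of the members above background, with equal differences on the dotted line. FOS and the EGR1 probe sets lie high in both conditions (FOS at 1.65 and 1.48) and FOSL1 lies low in both (-0.85 and -0.70), while the JUN, JUNB and JUND probe sets lie nearer 0.

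Of the 18 probe sets above background, 6 had both arrays numbered 1 above the 4 others (FOS, the 3 of EGR1, FOSL2 228188_at and JUN 201465_s_at), where 21.2% of all probe sets above background did. Both were below in 3 (FOSL1, JUND 203752_s_at and ATF3 202672_s_at), where 18.6% of all did. At an adjusted p under 0.05, 4 of the 18 were higher in number 1 (FOS, EGR1 201694_s_at and 227404_s_at, and FOSL2 228188_at), where 6.11% of all were, and 1 was lower (FOSL1), where 5.61% were. Nothing is read from these counts, because the members were chosen on these values. Other genes moved further, since 53 of the 11550 genes above background rose more than FOS in number 1, 154 rose more than EGR1 and 247 fell more than FOSL1. The pattern of FOS over the 6 arrays, each gene centred on its own mean, was nearest to that of the zinc finger gene ZSCAN31 (root mean square difference 0.096), the potassium channel subunit KCNE3 (0.113) and the flavin monooxygenase FMO5 (0.120). That of EGR1 was nearest to LYSMD2 (0.066), the serine synthesis enzyme PHGDH (0.078) and the membrane adaptor ANK3 (0.080). FOS itself was the 161st nearest gene to EGR1, at 0.223.

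Genes known as AP-1 targets were mostly lower in the arrays numbered 1, the arrays in which FOS was high and FOSL1 was low. A link between these levels was not tested, and the list was chosen with earlier results of these data known. Of 17 measured targets, 14 were above background, and 11 of these 14 fell and 2 rose at an adjusted p under 0.05, where 7.19% of all 11550 genes fell and 7.9% rose. The median log2 difference of the 14 was -0.62, against 0.010 over all genes above background. The chemokine CXCL8 had log2 signals of 8.07, 10.19 and 9.85 in control and 7.60, 9.82 and 10.10 in POSTN cells, with number 1 lowest by a wide margin in both. It fell by 2.16 (standard error 0.15, 4.46-fold lower, adjusted p = 1.3e-05). The cytokine IL6 read 6.78, 7.86 and 8.28 in control and 6.95, 7.93 and 8.54 in POSTN cells, and fell by 1.29 (standard error 0.23, adjusted p = 0.0065). The chemokine CXCL1 fell by 1.06, the growth factor HBEGF by 0.78, the urokinase PLAU by 0.76, its receptor PLAUR by 0.70, the chromatin protein HMGA1 by 0.74, the collagenase MMP1 by 0.55 and the cyclin CCND1 by 0.49. TIMP1, an inhibitor of matrix proteases, fell by 0.30, and the hyaluronan receptor CD44 fell by 0.28. Those that rose were the heme oxygenase HMOX1 (0.78) and the matrix protease MMP7 (0.69). MMP9 differed by -0.089 and was not called. With POSTN, none of the 17 was called, and the 14 differed by -0.40 to 0.17 with a median of -0.014.

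Fewer of these targets were called when an array numbered 1 was left out, while the size of the fall was similar. Without control replicate 1, 3 of the 14 were called lower, with a median of -0.50, and without POSTN replicate 1, 5 were called lower, with a median of -0.66. With a prior variance that does not follow the signal, 0 were called, a setting in which no probe set on the array was called. In direction, 12 of the 14 were lower with all arrays, 11 without control replicate 1 and 12 without POSTN replicate 1. Of the 11 targets with a promoter window, 3 held a TRE, shown here with the TRE or its reverse complement in capitals because they moved in opposite directions. 
CXCL8, chr4:73740415-73740454, plus strand: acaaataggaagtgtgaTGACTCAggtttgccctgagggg
MMP7, chr11:102530792-102530831, minus strand: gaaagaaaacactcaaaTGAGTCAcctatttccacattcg
PLAUR, chr19:43670333-43670372, minus strand: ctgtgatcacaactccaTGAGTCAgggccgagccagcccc
The TRE starts 137 bases before the CXCL8 gene, 67 before MMP7 and 186 before PLAUR. CXCL8 and PLAUR were lower and MMP7 was higher in number 1. Nothing is read about the element from these 3 genes, and its part in the differences was not tested.

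**Figure D4:**
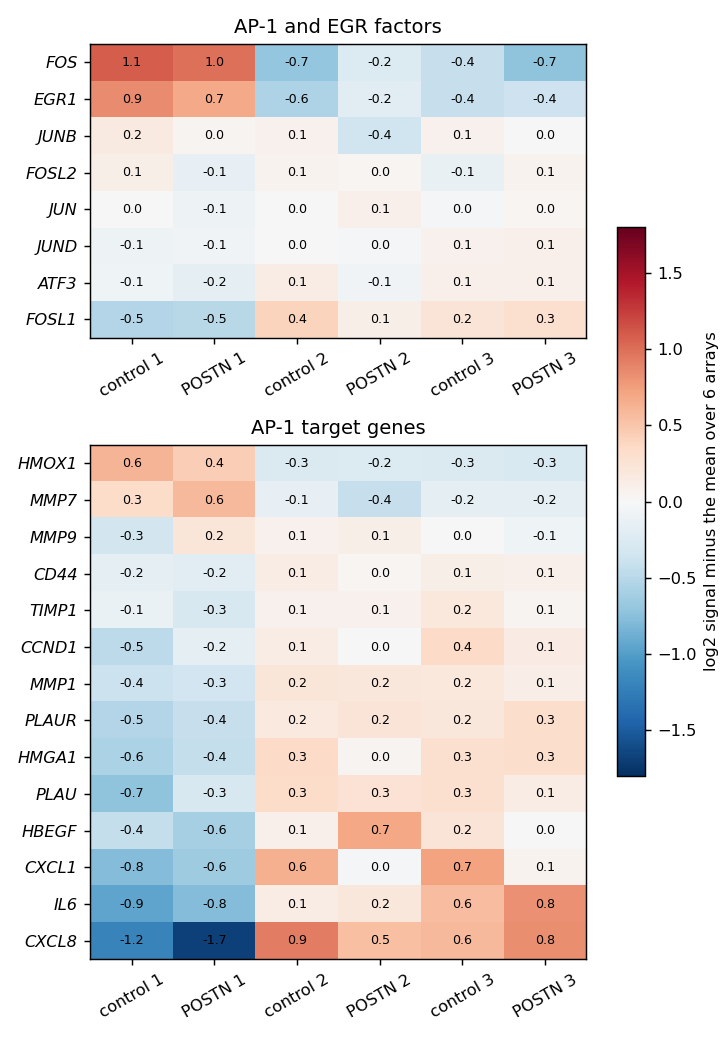
Log2 signal of the 8 members above background and of the 14 AP-1 target genes above background on each of the 6 arrays, each gene minus its own mean over the arrays (colour and printed value). The columns of control 1 and POSTN 1 stand out, with FOS and EGR1 high and FOSL1, CXCL8 and IL6 low in both.

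The other immediate early genes moved in both directions. Of 28 measured, 24 were above background, of which 6 rose and 7 fell in number 1 (25% and 29.2%), with a median of 0.059. Over all 11550 genes above background, 7.9% rose and 7.19% fell, and the shares of the lists were not tested against these. GADD45A, a stress gene that halts the cell cycle, fell by 1.20 and CCN1, a matrix-associated growth regulator, fell by 1.19, while the mRNA decay factor ZFP36L2 rose by 0.85 and the small GTPase RHOB rose by 0.73. Of the other basic leucine zipper factors of the CREB, ATF, BATF and MAF families, 16 of 17 were above background. Of these, 2 rose and 4 fell (12.5% and 25%). MAFF, a small MAF protein, fell by 0.74, and ATF2, a JUN partner, rose by 0.46. CREB5 differed by -2.22 and was not called, its value being 2.77 in POSTN 1 and between 6.35 and 7.13 on the other arrays, and BATF2 differed by 0.52 and was not called.

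Genes for the factors that act on the FOS and EGR1 promoters, and for related pathways and targets, were also read by number. Over all 11550 genes above background, 7.9% rose and 7.19% fell at an adjusted p under 0.05 (limma). Each list below holds only 8 to 15 measured genes, so nothing is read from its counts. Of 8 genes for SRF, its ternary complex partners and the EGR corepressors NAB1 and NAB2, all above background, none rose and 1 fell, the ternary complex factor ELK3, by 0.42. SRF differed by -0.38, the SRF coactivator MRTFB by 0.17 and NAB2 by 0.077, and none of these was called. Of 15 kinase and turnover genes of AP-1, MAP3K1, an upstream kinase of JNK, rose by 0.51 and none fell, while RPS6KA3 (0.24), MAP2K4 (-0.23) and MAP2K2 (-0.15) were not called. Of 10 genes that report ERK output, the phosphatase DUSP5 rose by 0.57 and the feedback inhibitor SPRY2 fell by 0.99, and ETV4 (0.64) and SPRY4 (-0.33) were not called. Of 8 known EGR1 targets, all above background, none rose and 2 fell, the growth factor FGF2 by 1.07 and tissue factor F3 by 1.03, whereas PDGFA (0.13) and VEGFA (0.10) were not called. Of 11 heat and stress genes, 2 rose and 3 fell. ASNS, the asparagine synthetase, fell by 0.37, DDIT3, a stress factor also known as CHOP, fell by 0.34 and the glutathione-degrading enzyme CHAC1 rose by 0.97, while XBP1 differed by 0.34 and was not called. Of the 19 genes named from these lists and the AP-1 targets by their rank that were called in number 1, 10 lost the call without control replicate 1 and 10 without POSTN replicate 1. All 19 lost it with a prior variance that does not follow the signal, a setting in which no probe set on the array was called. With POSTN, no gene of any of these lists was called (lowest adjusted p = 1.0, limma).

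Genes whose promoters hold the elements of the members were also counted. Among 149 genes above background with a CArG box, 13 rose and 28 fell in number 1 (8.73% and 18.8%), next to 7.93% and 6.97% of 9320 genes with no such box. EGR1, itself chosen on its levels by number, was 1 of 6 genes above background with 2 or more CArG boxes. The others, AGPAT1, CUL4B, ING4, SRF and ZNF548, were not called in number 1. Nothing is read from the call of EGR1 among them, because of that choice. Among 471 genes with a TRE, 36 rose and 60 fell (7.64% and 12.7%), next to 7.96% and 6.87% of 8998 genes with no TRE. Among 159 with an EGR site, 10 rose and 14 fell (6.29% and 8.8%), near the 7.9% and 7.19% of all 11550 genes above background. These are counts without a test, and the genes of a list are not independent.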

How the data were processed

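RNA of the 6 samples was hybridised to Affymetrix U133 Plus 2.0 arrays, and groups, numbers and the dose came from the labels. The authors scanned the arrays (GeneChip Scanner 3000) and processed them with MAS 5.0, and the deposited values are log2 MAS 5.0 signals, since their linear mean without the outer 2% was 500.0 on each array. MAS 5.0 subtracts background and mismatch signal, so dim probe sets vary widely. No further normalization was applied. Of 54675 probe sets, 62 controls were left out. Symbols came from the array's annotation (41091 probe sets with 1 symbol, 1801 with several, 11721 with none), and coordinates and promoters from RefSeq on GRCh38.p14. FOSL1 and EGR3 had no promoter entry.

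POSTN was compared with control, and number 1 with numbers 2 and 3 (condition as covariate), with lmFit and eBayes with a trend in limma 3.58.1 (R 4.3.3) over all 54613 probe sets, with Benjamini-Hochberg adjustment. The code was tested on simulated data. Each gene was read on its brightest probe set with 1 symbol. The members, the lists and the tests were chosen with earlier results of these data known. The named genes were all members, the 2 largest rises and 2 largest falls of each list in each comparison, and the 3 genes nearest in pattern to a member above background that spanned over 1 log2 unit. In the POSTN comparison, where no gene was called, lists are given by counts and ranges. Other genes are named after their values were seen. Deviations of same-numbered arrays correlated at 0.529, 0.235 and 0.239 above background (0.088, 0.034 and 0.025 over all probe sets). Above background, control 2 with POSTN 3 gave 0.20 and control 3 with POSTN 2 gave 0.15. The values thus set number 1 apart in both conditions, while a pairing of numbers 2 and 3 was not clear from the data. The POSTN errors and intervals come from the fit without the number, as the methods name no block, and those with the replicate block are named as such. Alternatives were quantile normalization, median centring, log2(signal + 50), a background filter, no trend, each gene's mean over its probe sets, the replicate block, the methods' t-test and thresholds, and leaving out each array. Leaving out both arrays numbered 1 was added after seeing the data. The number of arrays limits the precision. List genes that the annotation table used does not hold were not analysed here.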

Additional observations from a re-analysis of the deposited data

How the results depend on the processing

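No probe set was called between POSTN and control in any setting that adjusts p, the replicate block included (0 calls, lowest adjusted p 0.25), nor without both arrays numbered 1. At the study's unadjusted thresholds 1398 were counted in limma and 1139 with the methods' t-test. Between number 1 and the other arrays the 3069 calls became 0 with a prior variance without the trend and 657 to 3073 when 1 array was left out, and the cause was not tested. Rescaling gave 2379 to 2920 and the filter on dim probe sets 4167. NAB2 (0.077 by number) was 0.31 without control replicate 1, -0.16 without POSTN replicate 1 and -0.0025 without POSTN replicate 2. FOS ranged from 1.35 to 1.68, EGR1 from 0.97 to 1.34 and FOSL1 from -0.85 to -0.70 by number in these settings. Of the members' probe sets, 4 were called higher and 1 lower by number. These became 2 and 1 without control replicate 1, 3 and 1 without POSTN replicate 1, 5 and 1 above background only, and 0 without the trend. Over all probe sets, the 3069 calls became 718, 657, 4167 and 0 in the same order of settings. Nothing is read from the members' counts, because the members were chosen on these values. Signal over background limits FOSB, EGR3 and the dim JUND probe sets.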
